A study of Mus musculus with 2 samples.

Results

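Mir204 and Mir211 are the microRNA genes that lie inside introns of the melastatin TRP channel genes Trpm3 and Trpm1. They were taken as the rows of the count tables whose Ensembl identifiers GENCODE assigns to Mir204 or Mir211, which gave 2 genes of 1973 gene rows. Both passed the detection limit of at least 10 counts in both libraries, as did 356 genes in all. The libraries hold short RNA from the hindbrain of mouse embryos of strain B6NCrl at embryonic day 13.5, from healthy males and females pooled, with no treatment or altered allele named. There is 1 group of 2 libraries, numbered as biological replicates 1 and 2. They carry 1 donor identifier and separate biosample identifiers, and nothing says that they came from separate litters, so differences between them may be technical. With no second tissue, stage or genotype, the data give levels in this tissue and how its libraries differ, and conditions cannot be compared.

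A microRNA is cut from a folded hairpin, and either arm of the hairpin can be kept as a mature strand of about the length of the reads sequenced here. The seed, bases 2 to 8 of the mature strand, does most of the pairing with target messenger RNAs, so hairpins with the same seed are grouped as a family. The mir-204 family is known from epithelia of the eye and brain. miR-204 is abundant in retinal pigment epithelium, lens and choroid plexus, the epithelium that makes cerebrospinal fluid, and Trpm3 encodes a calcium-permeable channel found in the same places. miR-211 is known from melanocytes, where the transcription factor MITF drives Trpm1, and Trpm1 also encodes the channel of retinal ON bipolar cells.

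The mature strands show how near the members are to each other. They are from RefSeq on GRCm38.p6, both members matched, and the seed is in capitals.

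miR-204-5p: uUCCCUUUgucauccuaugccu

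miR-211-5p: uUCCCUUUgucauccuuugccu

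miR-204-3p: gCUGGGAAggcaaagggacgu

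miR-211-3p: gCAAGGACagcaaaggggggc

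The 5p strands are identical in 21 of 22 bases. Their single difference, A17U, counts positions from 1 at the 5′ end of miR-204-5p and lies outside the seed. The first 16 bases are therefore shared. The 3p strands, each 21 bases long, differ in 7 edits and have different seeds. In the RefSeq table, 1 other mouse mature strand starts with the same seed, miR-7670-3p, printed here because it would belong to the same seed group.

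miR-7670-3p: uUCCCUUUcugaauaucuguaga

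Mir7670 had 0 counts in both libraries. A count of 0 allows up to 3 counts, or 0.998 CPM in replicate 1 and 0.665 CPM in replicate 2. CPM is a gene's count divided by the total of all gene rows of its library, times 1000000.

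The whole hairpins differ far more than the 5p strands. They are shown with both arms in capitals.

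Mir204: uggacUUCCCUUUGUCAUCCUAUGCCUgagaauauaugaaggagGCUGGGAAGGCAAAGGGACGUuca

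Mir211: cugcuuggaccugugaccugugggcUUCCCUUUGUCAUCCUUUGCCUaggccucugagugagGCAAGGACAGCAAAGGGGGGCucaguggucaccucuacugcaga

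The annotated Mir204 hairpin is 68 nt long with 48.5% GC, and that of Mir211 is 106 nt with 57.5% GC. The longest run that both hairpins share is 17 nt. None of the 49 stretches of 20 nt in Mir204 and none of the 87 in Mir211 occurs in another of the 1005 hairpins of the RefSeq table. Folded with RNAfold, Mir204 has a predicted minimum free energy of -33.7 kcal/mol and the longer Mir211 one of -57.6 kcal/mol. In both predicted folds 17 bases of the 5p arm pair with the 3p arm, among them all 7 seed bases, and the base at position 17 is paired too. The arms are 17 nt apart in Mir204 and 15 nt apart in Mir211.

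Mir204 (ENSMUSG00000065507.2 in the tables) lies at chr19:22750605-22750672 on the plus strand of GRCm38, the assembly that mm10 denotes. GENCODE M21 lists it as version ENSMUSG00000065507.3, so the ends used in the authors' counting may differ from these. It sits in intron 6 of Trpm3-203, a transcript of 26 exons that covers 849.2 kb. That intron is 33462 nt long, and the hairpin begins 17433 nt after the exon before it and ends 15961 nt before the next. Mir211 (ENSMUSG00000065585.1) lies at chr7:64205806-64205911 on the plus strand. It sits in intron 6 of Trpm1-201, a transcript of 27 exons that covers 115.9 kb, in an intron of 3682 nt, 1212 nt after the exon before it. Both hairpins thus share the strand of their host and the same intron number. Of the Trpm3 transcripts in GENCODE M21, 18 of 24 span Mir204, and of the Trpm1 transcripts 12 of 23 span Mir211. In 0 of them does an exon overlap the hairpin. Mir6416 lies within Trpm1 on the opposite strand and had 0 counts in both libraries. Each row with a GENCODE M21 name was given at most a single host gene on its strand. By these hosts, no other microRNA row lay in a TRP channel gene. TRP channel genes were matched by the symbols of the Trpa, Trpc, Trpm, Trpv, Pkd2 and Mcoln genes. Rows without a name, and rows assigned to another overlapping gene, were not covered.

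**Figure D1:**
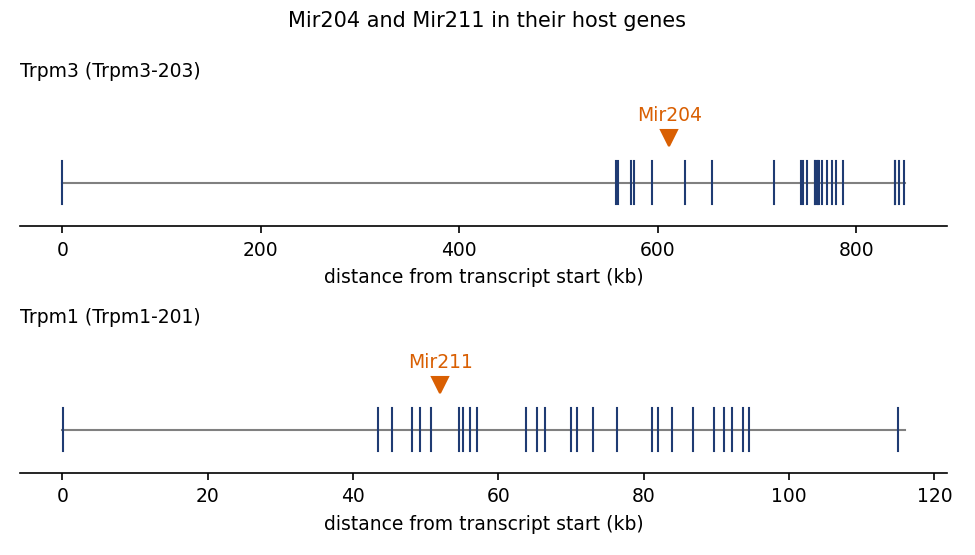
Exons (dark ticks, not drawn to width) of Trpm3-203 and Trpm1-201 against distance from the start of the transcript in kb, with the hairpins as orange triangles. Mir204 lies 611.5 kb from the start, 72.0% along Trpm3-203, and Mir211 lies 52.0 kb from the start, 44.8% along Trpm1-201, each in intron 6.

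The gene rows held 3006571 counts in replicate 1 and 4508244 in replicate 2. Reads set aside by the authors as multimapping, 33.9% and 34.5% of all reads, are in no gene row. Among lists of marker microRNAs, the Hox cluster list, which marks hindbrain and trunk positions, summed to 111478 and 135699 CPM in replicates 1 and 2. The neuronal list summed to 10884 and 10885 CPM, with Mir124a-1, Mir124a-2, Mir124a-3 and Mir9-2 under the detection limit. Of the Hox list, 4 of 6 genes were detected, and Mir196a-1, at 0 and 1 counts, and Mir196a-2, at 2 and 7, were not. Mir10a and Mir10b, at 84053 and 37089 CPM, made up most of its sum. Reads that map to more than 1 gene copy are in no gene row, and the list sums leave them out. The low counts of the Mir124a, Mir9-2 and Mir196a genes therefore do not show low expression.

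Mir204 was of middling to high abundance in the hindbrain. It had 3763 counts in replicate 1 and 9989 in replicate 2. These are 1252 CPM (exact Poisson 95% interval 1212 to 1292) and 2216 CPM (2172 to 2260), a mean of 1734 ± 682 CPM (SD, n = 2). The intervals cover counting error only. No molecular identifiers are named, so copies made in amplification cannot be told from separate molecules. Replicate 2 was higher and the intervals did not overlap. Mir204 made up 0.125% and 0.222% of all counts in replicates 1 and 2. It ranked 86th of the detected genes in replicate 1 and 69th in replicate 2. Its mean lay far above the median over detected genes, which was 166 CPM. Among the 172 detected genes inside introns, it ranked 36th.

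Mir211 was barely above the detection limit. It had 12 counts in replicate 1 and 26 in replicate 2. These are 3.99 CPM (exact Poisson 95% interval 2.06 to 6.97) and 5.77 CPM (3.77 to 8.45), a mean of 4.88 ± 1.26 CPM (SD, n = 2). Here the intervals overlapped. Both lay above what a count of 0 allows. Mir211 ranked 334th of the 356 detected genes by mean, and 156th of the 172 in introns. Neither member had a read on the opposite strand in either library. The limit of 3 counts is 0.0797% and 0.0300% of the Mir204 counts, but 25% and 11.5% of the Mir211 counts, so for Mir211 the strand check is weak.

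**Figure D2:**
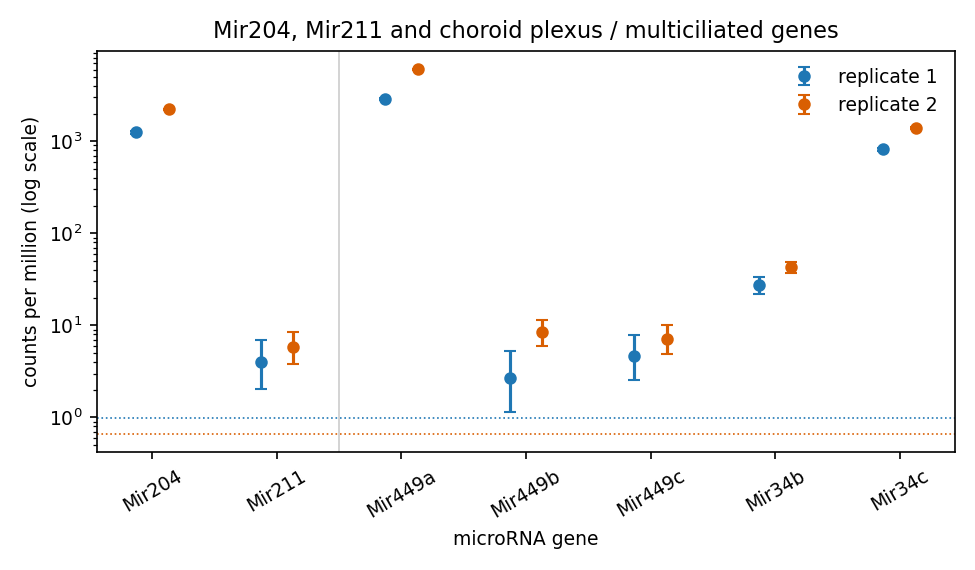
Levels of Mir204, Mir211 and the 5 listed choroid plexus and multiciliated genes in CPM on a log axis, with points for each library, bars for exact Poisson 95% intervals and dotted lines for the level that a count of 0 allows. Mir204 stands at 1252 and 2216 CPM, between Mir449a and Mir34c in both libraries, and Mir211 stands at 3.99 and 5.77 CPM beside Mir449b and Mir449c.

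Within a library, where sequencing depth cancels, Mir204 exceeded Mir211 by a factor of 314 in replicate 1 (exact Clopper-Pearson 95% interval 179 to 607) and 384 in replicate 2 (262 to 588). Mir211 was 0.318% of the reads of both genes in replicate 1 (0.164 to 0.555%) and 0.260% in replicate 2 (0.170 to 0.380%). The intervals overlapped widely. The ratio in replicate 2 over that in replicate 1 was 1.23 (95% interval 0.563 to 2.52, two-sided Fisher exact test, p = 0.585). Shifts of the ratio from 0.563 to 2.52 times thus lie within the interval, and the test does not show that the members moved alike. The counts are per hairpin, so they do not say which arm the reads came from.

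How reads of strands that differ at base 17 were told apart depends on the mismatches the aligner allowed, a setting not given in the sources used here. As a description, gene pairs were taken whose mature strands in the RefSeq table differ at 1 base. The higher member had to have at least 1000 counts in both libraries, which gave 11 pairs. In 9 of them the lower gene had from 2.47 to 49.6% of the counts of the higher one in replicate 1 and from 2.36 to 55.1% in replicate 2. Mir211 had 0.319 and 0.260% of the Mir204 counts. The remaining pair was close to it, with Mir103-1 at 0.245 and 0.266% of Mir107. Mir103-1 has the same 3p strand as Mir103-2, so reads of that strand are multimapping. The lower gene also shared its strand with another gene in 3 of the 9 pairs, where it had from 3.18 to 7.61%. Whether part of the Mir211 counts came from miR-204 reads was not tested.

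The genes next to Mir204 by mean level were Mir125b-2, Mir107 and Mir16-1 above it, from 1818 down to 1744 CPM, and Mir467c, Mir379 and Mir125b-1 below it, from 1719 down to 1599 CPM. Mir125b-2 and Mir125b-1 are lin-4 homologues, Mir107 lies in an intron of the pantothenate kinase gene Pank1, and Mir16-1 belongs to a family that restrains the cell cycle. The values of each of these 6 genes lay inside the range of Mir204, so the order among them is not resolved. All 6 were more even between the libraries, with log2 ratios of replicate 2 over replicate 1 between -0.20 and 0.05. The neighbours of Mir211 were Mir7226, Gm23873 and Mir292 above it, from 5.77 down to 5.27 CPM, and Mir6977, Mir1947 and Mir26a-1 below it, from 4.88 to 4.82 CPM. Their ranges also overlapped that of Mir211.

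Between the libraries the counts resolved a difference for Mir204 and not for Mir211. Scaled by trimmed-mean (TMM) library sizes, it was 1.75-fold higher in replicate 2 (95% counting interval 1.69 to 1.82), a log2 ratio of 0.81. In a two-sided exact binomial test of these counts, adjusted by Benjamini-Hochberg over the 356 detected genes, p was 7.91e-203. That test takes counting error as the only error and compares these libraries, not conditions. It passed 45.2% of all detected genes, 22.5% as higher and 22.8% as lower in replicate 2, so that 1 of the 2 members passing is near the background. Measured against the spread, the log2 ratio of Mir204 was beyond most: only 19 of the 356 genes, 5.34%, had an absolute log2 ratio at least as large, itself included. The median absolute log2 ratio was 0.17. Of the 93 genes with a mean of at least 1000 CPM, 1 had a larger one, Mir449a.

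With a spread between replicates added, the answer depended on its size. In edgeR's exact test with a preset biological coefficient of variation (BCV) of 0.1, Mir204 had an adjusted p of 0.00459, and 3.65% of genes passed. With the common BCV of 0.141 estimated from these libraries, its adjusted p in the edgeR exact test was 0.208, and 1.4% passed. Both set 1 library against 1 library and serve only to rank genes.

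Mir211 was 1.43-fold higher in replicate 2 (95% counting interval 0.698 to 3.12), a log2 ratio of 0.52 that did not pass the two-sided exact binomial test (adjusted p = 0.448). The interval includes both no difference and the fold of Mir204, so the members are not shown to differ in this. In value both members were higher in replicate 2, as were 50.6% of all detected genes.

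**Figure D3:**
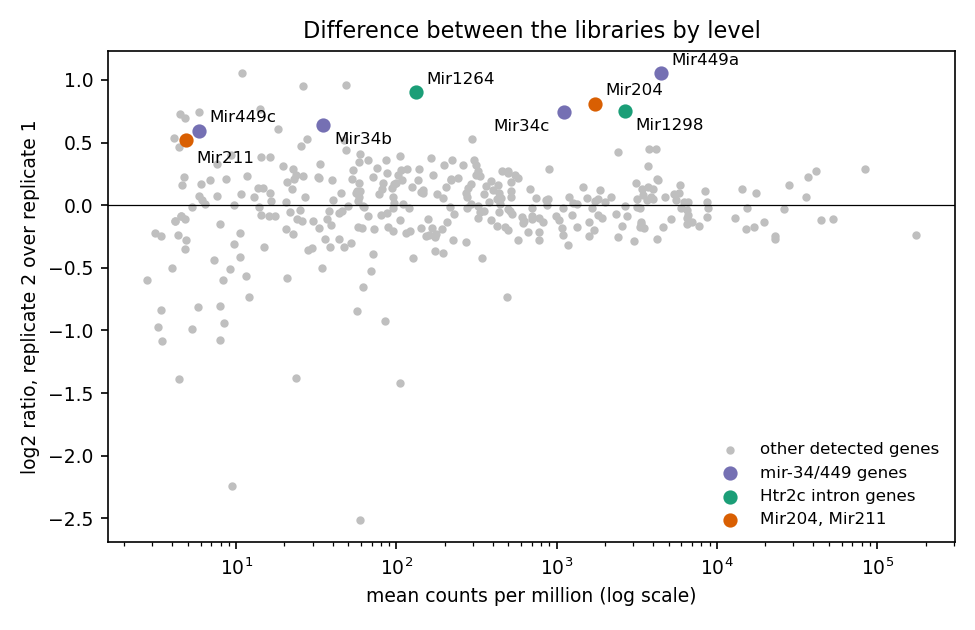
Log2 ratio of replicate 2 over replicate 1 against mean CPM on a log axis for the 356 detected genes, 1 point each. Mir204 lies at 0.81 among abundant genes that mostly lie near 0, close to Mir34c, Mir1298 and Mir449a, while Mir211 lies at 0.52 among low genes that scatter widely.

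The genes whose ratio was most like that of Mir204, over 2 libraries only and leaving out genes under a mean of 100 counts, were Mir1298, Mir34c, Mir1264, Mir196b and Mir206. Mir1298 and Mir1264 lie in introns of the serotonin receptor gene Htr2c. Mir1298 had 1983 CPM in replicate 1 and 3366 in replicate 2, a log2 ratio of 0.75. Mir1264 had 92.1 and 174 CPM, a log2 ratio of 0.90. Mir34c, known from multiciliated cells, had 822 and 1391 CPM, a log2 ratio of 0.75. Mir196b of the HoxA cluster and the skeletal muscle gene Mir206 had log2 ratios of 0.95 and 0.96 at mean levels of 26.0 and 48.4 CPM.

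Among markers of tissues that a hindbrain dissection can hold, the choroid plexus and multiciliated list is the one that miR-204 itself is known to mark. Its other members were Mir449a, Mir449b, Mir449c, Mir34b and Mir34c, of which Mir449b, at 8 and 38 counts, missed the detection limit. These 5 summed to 3736 CPM in replicate 1 and 7472 in replicate 2, and none was at 0. All 4 detected ones were higher in value in replicate 2, against 50.6% of all detected genes. Of the 4, 3 passed the exact binomial test as higher, against 22.5% of all detected genes. Their median log2 ratio was 0.69, against 0.01 over all detected genes. The mir-449 genes are neighbours in an intron of Cdc20b, and Mir34b and Mir34c are neighbours too, so the 5 are not independent. The exact binomial test takes counting error only, and the lists were chosen with earlier results of these data known.

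Mir204 lay below Mir449a and above the other 4 of these genes in both libraries. Mir449a had 2.30 times the CPM of Mir204 in replicate 1 and 2.72 times in replicate 2. Mir34c had 0.657 and 0.628 times its level. Mir34b, at 27.3 and 42.8 CPM, stood far below Mir204. Mir449b, at 2.66 and 8.43 CPM, and Mir449c, at 4.66 and 7.10 CPM, changed places between the libraries and lay near Mir211. In bulk tissue, more cells of a type and more RNA per cell cannot be told apart. The part of the choroid plexus and multiciliated cells in the difference of Mir204 was not tested.

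The other lists went both ways. Over all detected genes, 50.6% were higher in value in replicate 2, 22.5% passed as higher and 22.8% as lower. These shares are the background for each list below. All 4 detected Hox genes, of 6 listed, were higher in replicate 2 and passed, with a median log2 ratio of 0.36. Mir182, Mir183 and Mir96, a cluster active in photoreceptors and hair cells and set beside Mir211 in a list of pigment and sensory cells, summed to 10857 and 11784 CPM, with a median log2 ratio of 0.06. All 3 were higher in replicate 2 in value and 2 passed. The 7 epithelial genes, of the mir-200 family with Mir203 and Mir205, summed to 801 and 688 CPM, 4 passing as lower and 0 as higher in replicate 2 (22.8% and 22.5% of all detected genes), with a median log2 ratio of -0.84. The mesenchyme and meninges list summed to 821 and 538 CPM with a median of -0.37, and 2 of its 3 detected genes passed as lower. Endothelial and mural genes summed to 27312 and 25286 CPM with a median of -0.10, and 2 of 3 passed as lower. Blood genes summed to 486 and 452 CPM with a median of 0.10, 1 passing as higher, Mir155, and 1 as lower, Mir451a. Mir451a, made in red blood cells, stood at 152 CPM in replicate 1 against 57.5 in replicate 2, a log2 ratio of -1.42. Of the 5 detected blood genes it alone was lower in value, and the other 4 were higher. Among these, Mir144 was nearly even, at 20.3 CPM in replicate 1 and 20.9 in replicate 2, a log2 ratio of 0.03. The muscle list summed to 152 and 90.1 CPM with a median of -2.25, and Mir1a-1, Mir133a-1 and Mir133a-2 were at 0 in both libraries. Since reads that map to more than 1 gene copy are in no gene row, these counts of 0 do not show absence. Mir133b, at 1 and 5 counts in replicates 1 and 2, and Mir499, at 9 and 17, missed the detection limit. Of the 3 detected muscle genes, Mir206 passed as higher. Mir208b and Mir208a, which lie in cardiac myosin genes, passed as lower with log2 ratios of -2.51 and -2.25. At the estimated BCV, edgeR's exact test ranked Mir208b, Mir451a and Mir208a at the top, followed by Mir200b and Mir449a. The latter had log2 ratios of -1.38 for Mir200b and 1.05 for Mir449a. That test sets 1 library against 1 library and serves only to rank genes. The neuronal list had a median of 0.02, with 2 passing as higher and 3 as lower. Several lists thus differed between the libraries, some upward and some downward, and their part in the difference of Mir204 was not tested.

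**Figure D4:**
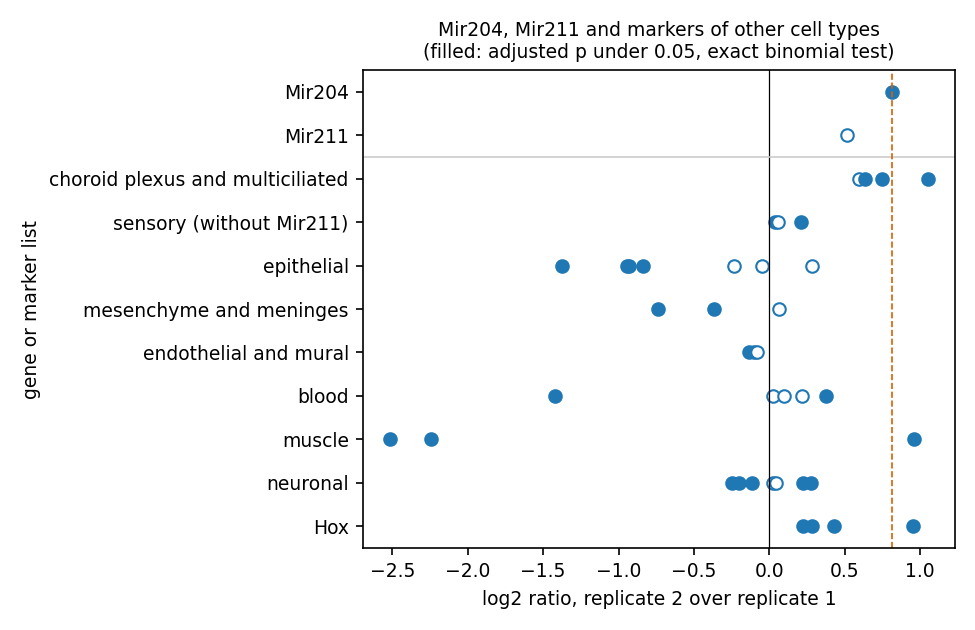
Log2 ratio of replicate 2 over replicate 1 for Mir204, Mir211 and each detected gene of the marker lists, 1 row per list, filled where the exact binomial test passed. The dashed line marks Mir204 at 0.81. The choroid plexus and multiciliated genes lie from 0.60 to 1.05, while the epithelial genes lie from -1.38 to 0.28.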

How the data were processed

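Short RNA was sequenced from 2 hindbrain libraries. The authors deposited raw read counts per microRNA gene, aligned to mm10 and counted on GENCODE M4, per the README text with the tables. The aligner and counter were not given in the sources used here. In each table there is an either-strand column, the sum of the other 2 in every gene row, and 1 column for each strand. The strand column with 98.1% of the gene counts was used. The 4 summary rows stayed out of library sizes, and gene rows held 49.0 and 47.5% of reads in replicates 1 and 2. At these depths 1 count is 0.333 and 0.222 CPM.

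Names and hosts came from GENCODE M21 (1894 of 1973 identifiers matched). Library sizes were the totals for levels, and TMM sizes from edgeR 4.0.16 on detected genes for ratios. With 1 group, edgeR's quasi-likelihood test could not be run, so counts were compared by the exact binomial test (SciPy 1.17.1, adjusted p threshold 0.05). It was tried on simulated Poisson counts. These hold no spread between replicates, so the trial does not show how the test behaves with such spread. DESeq2 1.42.0 gave alternative size factors, and ViennaRNA 2.7.2 the folds. Other alternatives were the either-strand column, no minimum count and edgeR's exact test. Named genes were the members, genes with their seed, the marker lists, the 3 detected genes on each side by level, and the 5 nearest Mir204 by ratio. The members and lists were chosen with earlier results of these data known. The TRP channel search, the microRNA rows within the hosts, the pairs with a 1-base difference and the grouping of genes above 1000 CPM were added after the values were seen.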

Additional observations from a re-analysis of the deposited data

How the results depend on the processing

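The levels of both members moved by less than 1 SD (n = 2) under the either-strand column, TMM sizes and DESeq2 size factors. Since neither member had opposite-strand reads, the either-strand column could not change their ratio. It could change their levels only through the library totals. With 2 libraries, leaving 1 out says nothing about stability. Over single libraries the Mir204 level ran from 1252 to 2216 CPM, the Mir211 level from 3.99 to 5.77 CPM and their ratio from 314 to 384. The log2 ratio of Mir204 between the libraries ran from 0.79 to 0.82 and passed with totals, DESeq2 size factors, the either-strand column, no minimum count and edgeR's exact test at a BCV of 0.1. With the estimated BCV, chosen after seeing the data, it was 0.81 and did not pass (edgeR exact test, adjusted p = 0.208), with a BCV of 0.141 in place of 0.1. The log2 ratio of Mir211 ran from 0.50 to 0.53 and passed under none of these, with adjusted p from 0.447 to 1.0 in the exact binomial and edgeR exact tests. The number of genes that differed was 161 by the exact binomial test, 13 by edgeR's exact test at a BCV of 0.1 and 5 with the estimated BCV, and from 153 to 170 under the other alternatives. The 12 and 26 counts of Mir211 limit what can be said of it. Leaving out a library leaves no difference to test. No paired analysis was possible because there is only 1 group.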
